A study of Mus musculus with 16 samples.

Results

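The renin-angiotensin and endothelin systems are represented here by 9 genes, which the array measures with 17 of its 41174 probes (9 of 28482 genes). A probe was taken when the gene name in the scanner files was Agt, Ace, Agtr1a, Agtr2, Atp6ap2, Edn1, Ednra, Ednrb or Ece1, and the probe of a gene with the highest mean over the 16 arrays stood for the gene. The RNA came from aortas of female C57BL/6 mice deficient in ApoE, a background on which atherosclerosis develops, and all groups, placebo included, shared that genotype, the ovariectomy at 4 to 5 weeks of age and a high-fat Western-type diet. A subcutaneous pellet placed 2 weeks after the ovariectomy and built to release for 90 days carried placebo or 1 of 2 progestins, MPA (medroxyprogesterone acetate) and NET-A (norethisterone acetate). The aorta between its arch and the renal arteries was taken after 78 to 90 days. The 4 groups of 4 arrays were MPA, the placebo group that shared its slides, NET-A, and the placebo group that shared its slides. The doses are not given in the sources used here, and nothing in the labels says that each sample of a group was a mouse of its own. The p-values therefore rest on the spread among samples, which may be technical.

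Both systems set vascular tone and salt balance. In the renin-angiotensin system the enzyme renin cuts angiotensinogen, a protein made mainly by the liver and also by fat and vessel wall, and angiotensin-converting enzyme then releases angiotensin II, which constricts smooth muscle through the type 1 receptor. In the endothelin system, endothelial cells make a precursor that endothelin-converting enzyme cuts into endothelin-1, which constricts smooth muscle through its type A receptor, while the type B receptor on endothelium relaxes the vessel and clears the peptide. MPA and NET-A are progestins used in contraception and in hormone therapy at menopause.

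A level is given throughout as the log2 processed signal minus the 75th percentile of its array. Levels are set against each other only within an experiment, since the MPA and NET-A experiments used different slides and scanner software, and never between probes. Between 46.3% and 60.6% of spots were well above background, the scanner software's mark for a measured signal, in the MPA experiment and between 62.3% and 78.5% in the NET-A experiment. MPA replicate 2 stood apart, with a median processed signal of 24.1 against 69.0 to 139.7 on the other arrays of its experiment. The sign counts of the tested genes, and the values of some lists, are therefore also given without it. The tissue label was borne by its markers: 10 of 10 smooth muscle and 15 of 15 endothelial markers were well above background on all 16 arrays. As in any whole-tissue sample, fewer cells of a type and less RNA per cell cannot be told apart.

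Of the 17 probes, 8 were well above background on all 16 arrays, 7 on some and 2 on none. The main probes of 7 genes, namely Ace, Agtr1a, Atp6ap2, Edn1, Ednra, Ednrb and Ece1, were among the 8. The angiotensin II type 2 receptor Agtr2, which opposes the type 1 receptor and is best known from fetal tissue, has 1 probe, at chrX:21065564-21065623 (mm9), and it was well above background on no array, so no change is given for it. Its readings ran from -5.68 to -3.83 on MPA arrays and -5.61 to -4.99 on placebo arrays, and from -8.08 to -5.85 on NET-A arrays and -7.68 to -6.38 on placebo arrays. Angiotensinogen (Agt) also has 1 probe, at chr8:127080661-127080720 on the minus strand, and it passed that mark on 3 of 4 MPA arrays and 4 of 4 of its placebo, and on 3 of 4 NET-A arrays and 3 of 4 of its placebo.

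**Figure D1:**
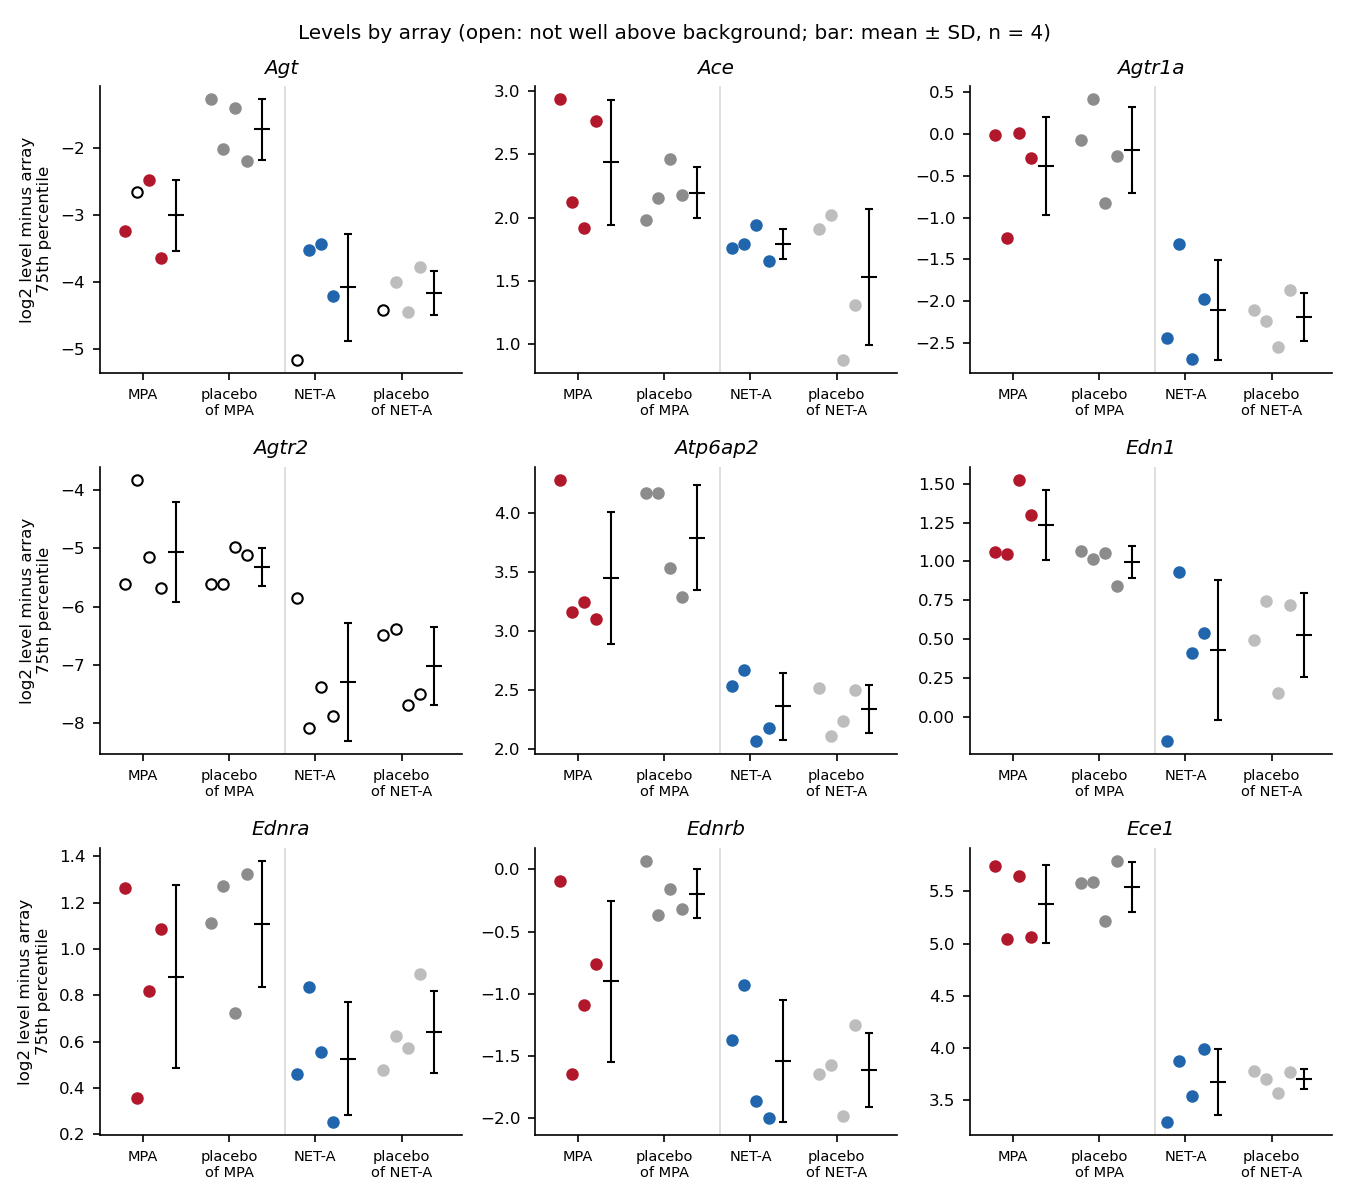
Level of each gene on each array (y axis, log2 processed signal minus the 75th percentile of the array) in the MPA, placebo, NET-A and placebo groups, with open points for arrays where the main probe was not well above background and bars for the mean ± SD of 4 arrays. Agt is the gene whose MPA points, from -3.63 to -2.49, lie wholly outside those of the placebo group, from -2.20 to -1.28, and all Agtr2 points are open.

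Secondary probes of 5 genes differed from the main probe in detection or in sign in at least 1 comparison. Of these probes, 3 are shown, chosen after their values were seen and because at least 1 forward reading frame of their 60 bases held no stop codon. The Agtr1a probe was too dim in the MPA experiment and of the other sign with NET-A, and the Ace and Ednra probes had the other sign with MPA and the same sign with NET-A. The sequences are those of the array design, with coordinates on mm9, and no letter is singled out.
Agtr1a A_51_P236439, chr13:30473748-30473807, plus strand: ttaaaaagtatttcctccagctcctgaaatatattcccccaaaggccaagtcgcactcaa
Ednra A_51_P457734, chr8:80191715-80191774, minus strand: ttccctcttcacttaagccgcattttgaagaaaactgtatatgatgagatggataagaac
Ace A_52_P72297, chr11:105847371-105849357, plus strand: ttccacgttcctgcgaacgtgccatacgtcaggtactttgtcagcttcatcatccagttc
The Ace probe covers 1987 bases of the genome with 60 letters, so its sequence joins stretches that are apart in the genome.

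The comparison of MPA with its placebo asks whether this progestin is accompanied by other transcript levels of the 2 systems in the vessel. No gene of the 8 tested passed the Benjamini-Hochberg threshold of 0.05 (limma), and of all 15374 genes tested 0 passed (0%). The smallest adjusted p was 0.662, with 954 genes at an unadjusted p under 0.05 (6.21%). The difference furthest from 0 among the 8 was in angiotensinogen, which was lower in all 4 MPA samples than in any placebo sample. The type B endothelin receptor Ednrb came next, with overlapping groups. Both were lower with an unadjusted p under 0.05, a call that 2.69% of all genes met. In sign, 6 of the 8 were lower with a median change of -0.21, against 52.2% lower and a median of -0.013 over all genes. Without MPA replicate 2, 5 of 8 were lower, with a median of -0.054, and 1 (Agt) kept an unadjusted p under 0.05.

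Agt, the precursor of all angiotensins, had levels of -3.25, -2.66, -2.49 and -3.63 in MPA replicates 1 to 4, against -1.28, -2.03, -1.41 and -2.20 in the placebo group. The groups did not overlap, which 1.58% of all genes also showed in this direction, and the second MPA array was the one on which the probe was not well above background. The means were -3.01 ± 0.53 with MPA and -1.73 ± 0.45 with placebo (SD, n = 4 each). The change was -1.28 ± 0.31 (SE), a ratio of 0.413 with a 95% interval of 0.255 to 0.669. Its unadjusted p was 0.00248, rank 56 among all genes tested, and its adjusted p was 0.662 (limma). It was -1.30 ± 0.38 within slide 1 and -1.25 ± 0.46 within slide 2, and -1.39 without MPA replicate 2. The value depended on how the background was taken: with normexp correction of the raw mean signal it was 0.03 (offset 50) or -0.07 (offset 0). Normexp also moved the comparison as a whole. With it, 4342 (offset 50) or 3002 (offset 0) of 15374 genes had an unadjusted p under 0.05 (limma), against 954 in the main fit. On the arrays of this experiment the negative-control spots had median raw signals of 116.2 to 133.1, against 25 to 28 for the local background that normexp uses, and in the NET-A experiment 24 to 30 against 26 to 36. The cause of the change in value was not tested.

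**Figure D2:**
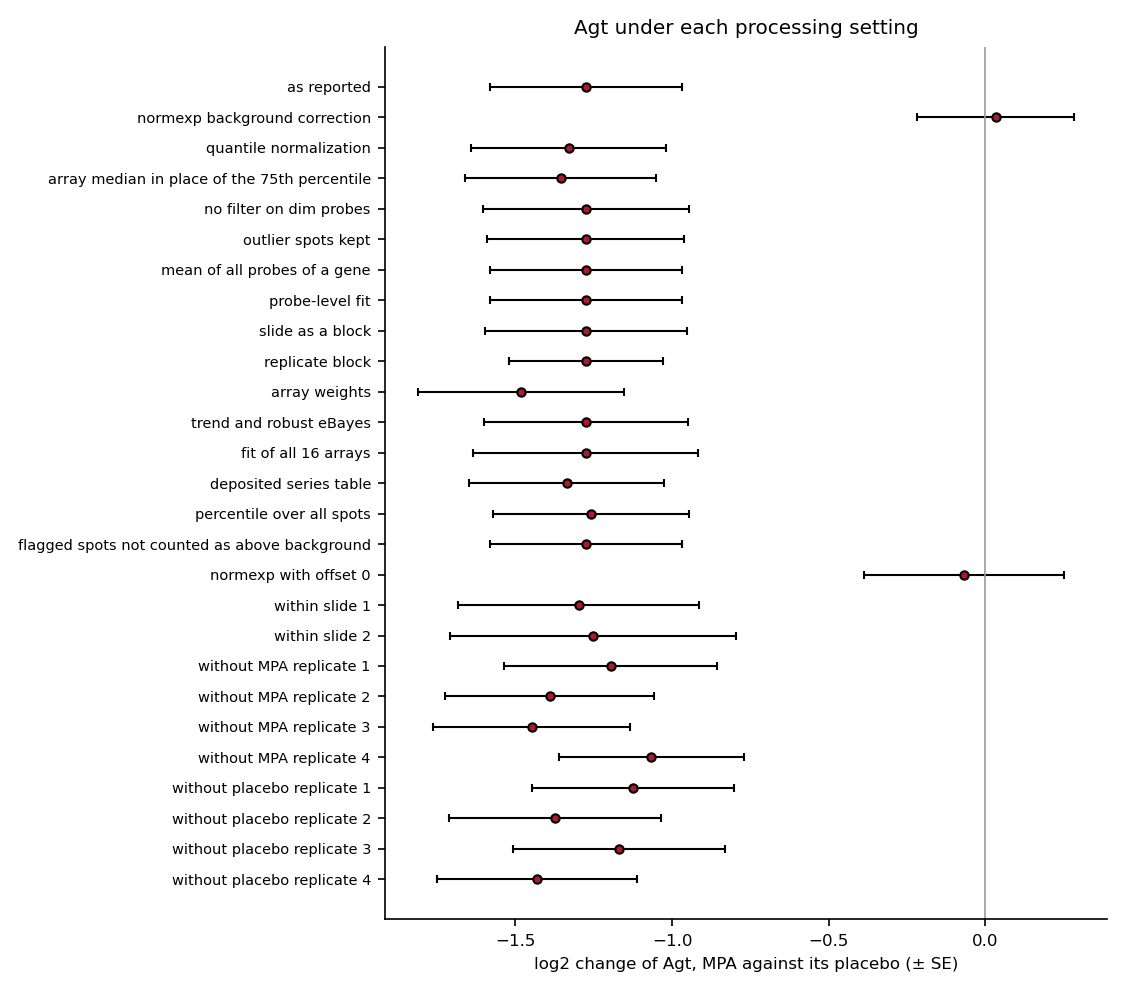
Change of Agt with MPA against its placebo (x axis, log2 change ± SE) under each processing setting (rows), including single arrays left out and each slide alone. Apart from the 2 normexp settings, at 0.03 and -0.07, all values lie between -1.48 and -1.07.

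Transcripts best known from liver, where most circulating angiotensinogen is made, were mostly lower with MPA as well. Of 8 hepatocyte markers tested, 7 were lower, against 52.2% of all genes, with a median change of -0.99. An unadjusted p under 0.05 (limma) was met by 4, all lower, against 2.69% of all genes lower, and 0 passed the threshold. Other lists held such calls too, with 6 of 12 macrophage, 2 of 6 skeletal muscle and 1 of 6 mast cell markers lower. Of 11 brown adipocyte markers 1 was higher and 1 lower at that p, and of 15 endothelial markers 1 was higher. Of 10 blood cell markers, 5 met that p and were higher, against 6.21% of all genes in either direction. The mean level of the hepatocyte markers ran from -1.21 to -0.49 on MPA arrays and from -0.91 to 0.95 on placebo arrays, so the groups overlapped. Of the defining markers, Alb (albumin) and Apoa2 were well above background on all 8 arrays, and Apoa1 was so on 1 MPA and 3 placebo arrays. The highest placebo value is that of replicate 3, the other 3 lying between -0.91 and -0.06. Without placebo replicate 3, 6 of 8 markers were lower with a median of -0.69, and without MPA replicate 2, 8 of 8 with a median of -1.06. In the NET-A experiment 5 of 7 were lower, with a median of -0.05 (from -0.21 to 0.28 with single arrays left out) and mean levels of -3.81 to -2.91 on NET-A arrays and -3.72 to -2.64 on placebo arrays.

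Fat also makes angiotensinogen. The 11 adipocyte markers had a median change of -0.02 with MPA, from -0.13 to 0.18 with single arrays left out, and the 11 brown adipocyte markers tested 0.01. Of the defining adipocyte markers Adipoq and Plin1 were well above background on all 16 arrays and Lep on 1 MPA and 3 placebo arrays. In the NET-A experiment replicate 2 stood apart in fat markers, with a mean adipocyte level of 3.89 against 1.79 to 2.65 on the other NET-A arrays and a brown adipocyte level of 3.64 against 1.55 to 2.18. It also read the highest of the NET-A arrays for Agtr1a, Atp6ap2, Edn1, Ednra and Ednrb. The medians with NET-A were 0.03 (adipocyte) and -0.36 (brown adipocyte), and without that array -0.34 and -0.90.

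Macrophage markers were lower in 12 of 12 with MPA (median -0.56) and in 12 of 12 with NET-A (-0.61), and all 12 were well above background on all 16 arrays. Their mean level ran from 1.45 to 1.93 on NET-A arrays and from 1.72 to 3.19 on placebo arrays, where replicate 4 was the highest, and without it the NET-A median was -0.33. Blood cell markers were higher in 10 of 10 with either progestin (0.90 with MPA and 1.23 with NET-A). Skeletal muscle markers had medians of -1.84 over 6 genes with MPA and 1.02 over 12 with NET-A. Placebo replicate 3 of the MPA experiment stood apart in them, at a mean level of 3.54, with the other 3 placebo arrays between -0.95 and 0.62 and the MPA arrays between -1.33 and -1.11, and without it the median was -0.70. Without the same array the change of Agt was -1.17. Smooth muscle (0.11 with MPA, -0.02 with NET-A), endothelial (0.18 and 0.14), fibroblast (-0.29 and -0.11), mast cell (-0.60 and -0.06) and Schwann cell markers (-0.20 and -0.09) complete the lists. Without MPA replicate 2 the mast cell median with MPA was -0.36. Fibroblast markers were lower in 9 of 10 with MPA, against 52.2% of all genes, and 0 of them had an unadjusted p under 0.05 (limma). The part of any of these cell types in the values of the 9 genes was not tested.

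**Figure D3:**
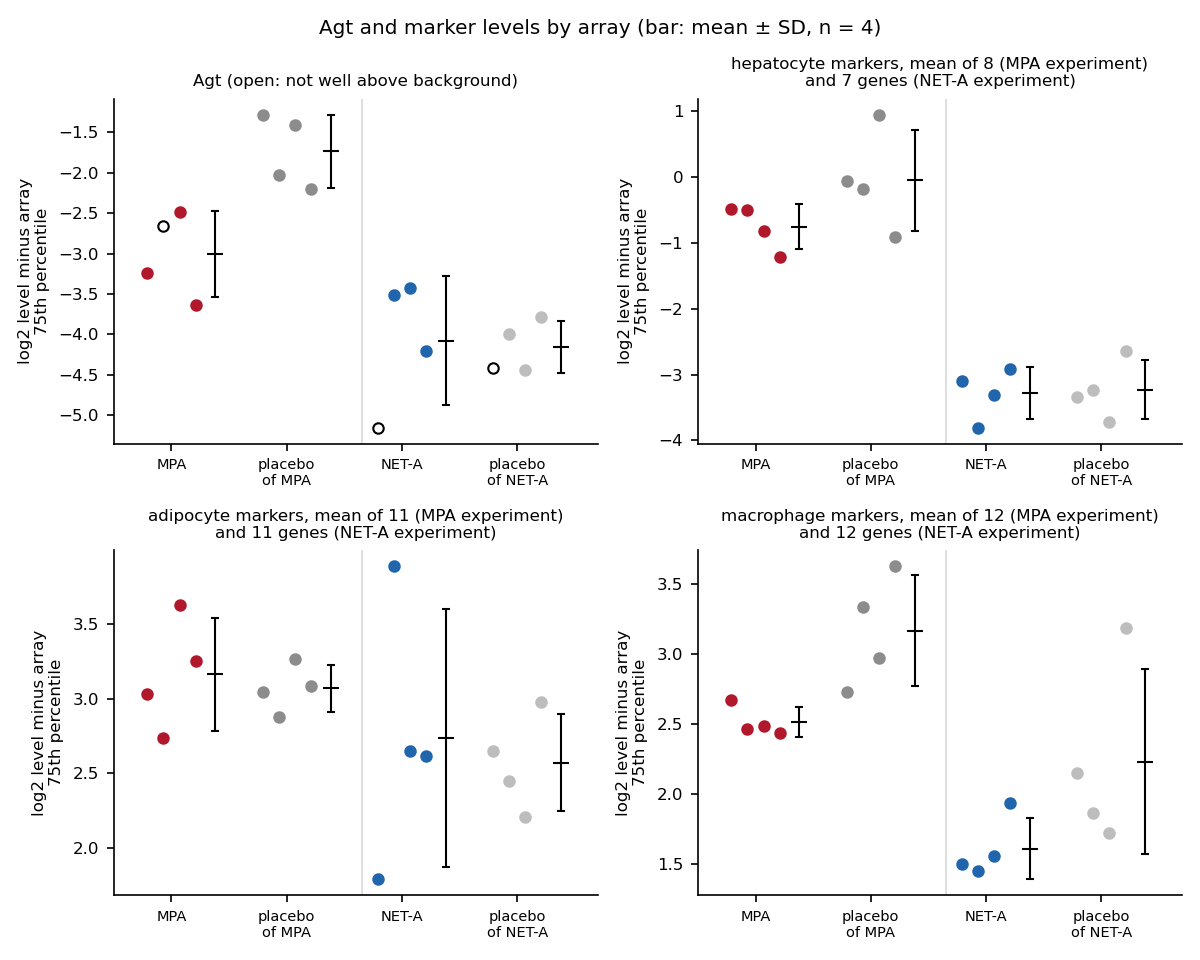
Agt level and the mean level of hepatocyte, adipocyte and macrophage markers (y axes, log2 minus the 75th percentile of the array) on each array of the 4 groups, with bars for the mean ± SD of 4 arrays. MPA arrays are below all placebo arrays for Agt and for macrophage markers (2.43 to 2.67 against 2.73 to 3.63), while the hepatocyte and adipocyte points of the MPA experiment overlap.

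The enzymes and receptors downstream of angiotensinogen showed no difference beyond the spread with MPA. Ace, which converts angiotensin I to angiotensin II and breaks down bradykinin, had levels of 2.94, 2.13, 1.92 and 2.77 in MPA samples, against 1.98, 2.16, 2.47 and 2.18 in placebo samples. The change was 0.24 ± 0.25 (adjusted p = 0.900, limma), with both the highest and the lowest value in the MPA group. It was 0.07 without MPA replicate 1 and 0.41 without MPA replicate 3, and 0.46 ± 0.35 within slide 1 and 0.02 ± 0.33 within slide 2. Its probe A_52_P72297, shown above, gave -0.28 ± 0.38, while A_51_P310523 was well above background on no array of this experiment.

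Agtr1a, the main rodent gene for the type 1 receptor, had levels of -0.02, -1.24, 0.01 and -0.29 in MPA samples and -0.07, 0.41, -0.83 and -0.27 in placebo samples. MPA replicate 2 was the lowest of the 8, and the change of -0.20 ± 0.34 (adjusted p = 0.939, limma) became 0.09 without it. Within slide 1 it was -0.80 ± 0.49, and within slide 2 it was 0.41 ± 0.27. The second probe, A_51_P236439, passed the background mark on 1 MPA array and 0 placebo arrays, and was not tested.

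Atp6ap2, the prorenin receptor and an accessory part of the vacuolar proton pump, had levels of 4.28, 3.16, 3.25 and 3.10 in MPA samples and 4.17, 4.17, 3.54 and 3.29 in placebo samples. MPA replicate 1 and both placebo arrays of slide 1 were high, and the other 5 arrays lay between 3.10 and 3.54. The change was -0.35 ± 0.32 (adjusted p = 0.887, limma), with -0.45 ± 0.43 on slide 1 and -0.24 ± 0.20 on slide 2. With single arrays left out it ran from -0.62 (without MPA replicate 1) to -0.22 (without placebo replicate 1).

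In the endothelin system the main probes of the receptors were lower on average and that of the peptide's gene higher, with overlapping groups in each. The secondary probes tested gave 0.04 for Ednrb, and -0.18 and 0.40 for Ednra. Edn1, which encodes the endothelin-1 precursor, had levels of 1.06, 1.05, 1.52 and 1.30 with MPA, against 1.07, 1.02, 1.05 and 0.84 with placebo. MPA replicates 3 and 4 were above all placebo arrays, and both are on slide 2, where the change was 0.46 ± 0.21 against 0.0099 ± 0.22 within slide 1. Over both slides it was 0.24 ± 0.16 (adjusted p = 0.856, limma), and 0.14 without MPA replicate 3. Ece1, the converting enzyme, had levels of 5.05 to 5.74 with MPA and 5.21 to 5.79 with placebo, a change of -0.17 ± 0.22 (adjusted p = 0.913, limma) that was -0.06 without MPA replicate 2.

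Ednrb, the type B receptor, had levels of -0.10, -1.64, -1.09 and -0.76 in MPA samples, against 0.07, -0.36, -0.16 and -0.32 in placebo samples. Of the MPA arrays, 3 were below all placebo arrays and replicate 1 was not, and the SD was 0.65 with MPA and 0.20 with placebo. The change was -0.70 ± 0.30, a ratio of 0.613 with a 95% interval of 0.383 to 0.982 (unadjusted p = 0.0433, adjusted p = 0.799, limma). It was -0.72 ± 0.58 within slide 1 and -0.69 ± 0.21 within slide 2, and with slide as a block its unadjusted p was 0.0567. With single arrays left out it ran from -0.97 (without MPA replicate 1, unadjusted p = 0.00299 by limma) to -0.46 (without MPA replicate 2, unadjusted p = 0.105), and the other 6 such fits had unadjusted p-values of 0.0539 to 0.100. The second probe, A_51_P262964, was also well above background on all 16 arrays and did not repeat the difference: its levels were -0.85, -1.41, -0.77 and -1.46 with MPA and -1.44, -1.19, -0.92 and -1.13 with placebo, a change of 0.04 ± 0.21 (adjusted p = 0.977 over all probes, limma). The main probe lies at chr14:104214484-104214543 and the second at chr14:104216247-104216306, both on the minus strand (mm9).

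Ednra, the type A receptor of smooth muscle, had levels of 1.26, 0.35, 0.82 and 1.09 with MPA, against 1.11, 1.27, 0.72 and 1.32 with placebo. MPA replicate 2 was the lowest, and the change was -0.23 ± 0.23 (adjusted p = 0.899, limma). It was -0.05 without that array, and -0.38 ± 0.38 within slide 1 and -0.07 ± 0.27 within slide 2. Among its other probes, A_52_P622988 gave -0.18 ± 0.36 and A_51_P457734, shown above, 0.40 ± 0.39, while A_51_P417991 was well above background on no array. Across the genes, 1 of the 4 secondary probes tested with MPA had the sign of its main probe, and 4 of 6 with NET-A.

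**Figure D4:**
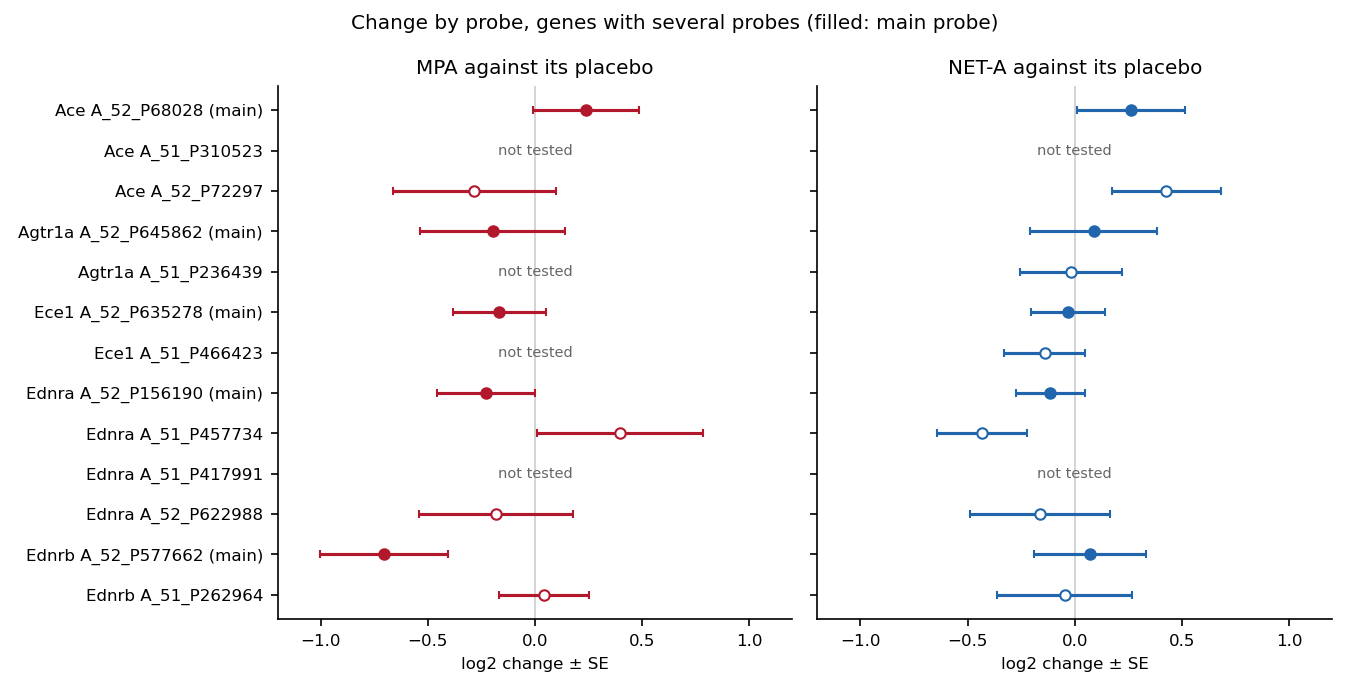
Change by probe (x axis, log2 change ± SE) for the 5 genes with several probes, with MPA at the left and NET-A at the right, filled points for the main probe and a note where too few arrays were well above background for a test. With MPA the Ednrb probes are at -0.70 and 0.04.

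The comparison of NET-A with its placebo puts the same question to the progestin derived from testosterone. Each of the 8 genes tested had overlapping groups and a change between -0.11 and 0.26, none at an unadjusted p under 0.05. Over all 21183 genes 0 passed the threshold (0%), the smallest adjusted p was 0.299, and 1308 (6.17%) had an unadjusted p under 0.05. In sign, 5 of 8 were higher with a median of 0.046, against 45.3% and a median of -0.024 over all genes, although Atp6ap2 was lower after quantile normalization (-0.0041) and Ece1 higher after scaling to the array median (0.054). Groups were apart for 0 of the 8, against 3.93% of all genes. The sign count rested on single arrays: 1 of 8 was higher without NET-A replicate 2 (median -0.12), 1 of 8 without placebo replicate 3 (-0.042) and 6 of 8 without NET-A replicate 1 (0.098).

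Agt had levels of -5.16, -3.52, -3.43 and -4.21 in NET-A samples, against -4.41, -4.00, -4.44 and -3.78 in placebo samples. NET-A replicate 1, both the lowest of the 8 and not well above background, shares slide 3 with placebo replicate 1, which was not well above background either. The change was 0.08 ± 0.38 (adjusted p = 0.997, limma) with a 95% interval of -0.79 to 0.95, and without NET-A replicate 1 it was 0.44. By slide it was -0.74 (slide 3) and 0.57 (slide 4), each with 1 array a group and no test, and 0.25 ± 0.36 on slide 5.

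Ace had levels of 1.76, 1.79, 1.95 and 1.66 with NET-A, against 1.91, 2.02, 0.88 and 1.31 with placebo, a change of 0.26 ± 0.25 (adjusted p = 0.956, limma). The 2 low placebo arrays are those of slide 5, where the change was 0.63 ± 0.24, while slides 3 and 4 gave -0.15 and -0.07. The probe A_52_P72297 gave 0.43 ± 0.26. The probe A_51_P310523 was well above background on 2 NET-A and 0 placebo arrays, with levels from -8.08 to -3.19 with NET-A and from -7.72 to -6.16 with placebo.

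For the remaining genes the means differed by less than their standard error. Agtr1a gave 0.09 ± 0.30, from levels of -2.68 to -1.32 with NET-A and -2.55 to -1.86 with placebo, and its probe A_51_P236439, well above background on all 8 arrays here, gave -0.02 ± 0.24. Atp6ap2 gave 0.02 ± 0.18, from levels of 2.07 to 2.67 with NET-A and 2.11 to 2.51 with placebo. The groups of both genes overlapped over most of their range.

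Edn1 had levels of -0.15, 0.93, 0.41 and 0.54 with NET-A, against 0.49, 0.74, 0.16 and 0.72 with placebo, a change of -0.10 ± 0.24. NET-A arrays held both the lowest and the highest value, and without NET-A replicate 1 the change was 0.10. Ece1 gave -0.03 ± 0.17, from levels of 3.29 to 3.99 with NET-A and 3.57 to 3.77 with placebo. Ednrb had levels of -1.37, -0.93, -1.86 and -2.0 with NET-A, against -1.65, -1.57, -1.98 and -1.25 with placebo, a change of 0.07 ± 0.26, and its second probe gave -0.05 ± 0.32. The placebo arrays lay within the range of the NET-A arrays for Edn1, Ece1 and Ednrb. Ednra had levels of 0.46, 0.84, 0.56 and 0.25 with NET-A, against 0.48, 0.62, 0.57 and 0.89 with placebo, a change of -0.11 ± 0.16, and its probe A_51_P457734 gave -0.43 ± 0.21 (adjusted p = 0.776 over all probes, limma). The intervals show what these arrays leave room for: 95% limits on the log2 change of -0.48 to 0.25 for Ednra, -0.66 to 0.47 for Edn1 and -0.43 to 0.36 for Ece1.

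Whether the response to MPA differed from that to NET-A was tested over all 16 arrays as the difference of the changes. None of the 8 passed, and over 15243 genes 0 did (0%), with a smallest adjusted p of 0.198 and 1040 (6.82%) at an unadjusted p under 0.05. For Agt the difference was -1.36 ± 0.51 (unadjusted p = 0.0171, adjusted p = 0.636, limma), and with normexp, here on the raw median signal that all 16 files hold, it was 0.42. For Ednrb it was -0.77 ± 0.41 (unadjusted p = 0.0798, adjusted p = 0.771). The other 6 differences lay between -0.37 and 0.33. In sign 7 of 8 were negative, against 50.4% of all genes, and 4 of 8 without MPA replicate 2. Agt alone had an unadjusted p under 0.05 in the negative direction, which 2.57% of all genes met.

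**Figure D5:**
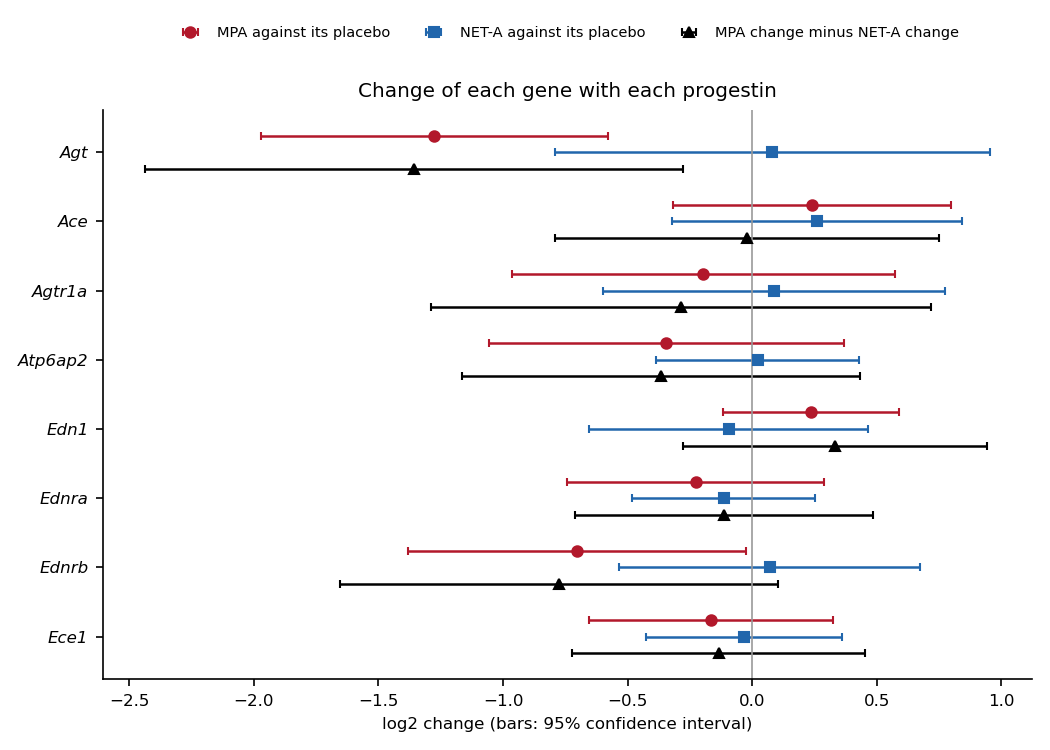
Log2 change (x axis) with its 95% confidence interval for the 8 genes tested, with MPA and with NET-A against their own placebo groups, and the difference between the changes. The MPA interval of Agt runs from -1.97 to -0.58, and that of Ednrb from -1.38 to -0.03, both before adjustment for the number of genes tested.

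Other genes of the 2 systems were listed as well, and 0 of them passed the threshold in either comparison. Of 17 further renin-angiotensin genes on the array, chiefly peptidases that make or break angiotensins, 12 were well above background on all arrays. With MPA 3 of 12 tested were higher and 9 lower (median -0.13, or -0.07 without MPA replicate 2), against 47.8% higher over all genes, and with NET-A 5 of 15 were higher and 10 lower (median -0.03). Renin itself, Ren1, named here after its values were seen, was detected on 2 MPA arrays and 1 of its placebo, and on 3 NET-A arrays and 3 of its placebo, and gave 0.26 ± 0.28 with NET-A.

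The other endothelin peptides and peptidases, 5 genes, were too dim for a test in the MPA experiment, and with NET-A 1 was higher and 4 lower (median -0.04). The higher one changed by 1.61, with an unadjusted p under 0.05 (limma) and overlapping groups. Of the kinin genes, whose peptides Ace breaks down, 1 of 4 tested was higher with MPA (median -0.42, from -0.66 to 0.018 with single arrays left out) and 4 of 6 with NET-A (0.21). Among genes of receptor signalling, such as G proteins and phospholipases, 5 of 21 were higher with MPA (median -0.12) and 10 of 23 with NET-A (-0.02). Without MPA replicate 2, 10 of those 21 were higher (median -0.04), and without placebo replicate 1, 11 were (0.011). An unadjusted p under 0.05 (limma) was met by 2 of the 21 with MPA, both higher, and 1 of the 23 with NET-A, lower. Kinin genes met it in 0 of 4 with MPA and 2 of 6 with NET-A, both higher. Over all genes 6.21% (MPA) and 6.17% (NET-A) met it in either direction.

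Klk1, a kallikrein that releases kinins, was the listed gene with groups that did not overlap and an unadjusted p under 0.05. Its levels were -2.62, -3.80, -1.54 and -3.25 in NET-A samples, against -4.42, -4.62, -3.89 and -3.82 in placebo samples. The probe was dim, and was well above background on 4 NET-A arrays and 3 placebo arrays. The lowest NET-A array was just above the highest placebo array, and the change was 1.38 ± 0.46 (unadjusted p = 0.0159, adjusted p = 0.677, limma), with groups apart in this direction in 1.61% of all genes. Mice carry many close relatives of this gene, so the probe's specificity is uncertain. With MPA it was too dim for a test.

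Likeness to other genes was described by the Pearson correlation over the 16 arrays after the mean of each experiment was subtracted, among 11954 genes well above background on all arrays. These points share slides and array quality, and no test was made. The first places went to Dagla for Agtr1a (0.937), the transcript ENSMUST00000113597 for Atp6ap2 (0.934), R3hdm2 for Ace (0.914), Uck1 for Edn1 (0.907), Spg21 for Ednra (0.872), Yeats4 for Ednrb (0.857) and H2-K1 for Ece1 (0.855). The next places went to Cebpg and Dynll2 for Agtr1a (both 0.929), Serpine2 and Zfand2a for Atp6ap2 (0.928 and 0.919), and Prrc2a and Tle5 for Ace (0.899 and 0.837). They went to NAP038285-1 and Acsf3 for Edn1 (0.860 and 0.845), Casp8 and Mcfd2 for Ednra (both 0.870), Mcfd2 and Agk for Ednrb (0.855 and 0.848), and Ten1 and Mrpl48 for Ece1 (0.828 and 0.820).

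Among the genes themselves, the receptors Ednra and Ednrb followed each other over the arrays (r = 0.727), as did Ednrb and Atp6ap2 (0.718), Agtr1a and Ece1 (0.708), and Agtr1a and Ednra (0.685). Ace stood apart from the other 6, with values from -0.076 to 0.236. Edn1 and its receptors gave 0.116 (Ednra) and 0.012 (Ednrb). These correlations used main probes only, and the second Ednrb probe did not repeat the MPA difference of the main one. MPA replicate 2, the dim array, read the lowest of its experiment for Ednra (0.35), Ednrb (-1.64), Agtr1a (-1.24) and Ece1 (5.05). No correlation was computed without that array.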

How the data were processed

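Transcript levels were measured in 16 aorta samples on one-colour Agilent arrays (Cy3, 100 ng of total RNA). Per the file headers, the scans were quantified as intensity per spot by Feature Extraction (10.7.1.1 for MPA and its placebo, 11.0.1.1 for NET-A and its placebo), with probes annotated to mm9. The deposited processed intensity, per the file headers, is background-subtracted but not normalized between arrays. The deposited series table holds log2 values whose scale, centring and direction are not stated. Its columns followed the quantile-normalized log2 signals of their own arrays, centred on each probe's median within an experiment, with correlations of 0.989 to 1.00 and slopes of 0.977 to 1.01, and column medians lay between -0.027 and 0.016.

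Gene names in the NET-A files were taken from the MPA files by probe name, and 26690 probes matched the RefSeq table by accession. The 9 genes kept their array names. Spots with outlier flags were left out, log2 processed signals averaged per probe, and each array scaled by subtracting the 75th percentile of these probe values. A gene was tested when its main probe was well above background on at least 4 of 8 arrays. Groups were compared with limma 3.58.1 in R 4.3.3 (lmFit and eBayes, two-sided, Benjamini-Hochberg over all genes), each progestin against its own placebo and the difference of the changes over all 16 arrays. The scripts were tested on simulated data. The number of arrays limits the precision.

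The genes, lists and tests were chosen with earlier results of these data known. The processing was run in 3 ways, which differ in the values behind the percentile and in how flagged spots count in the filter, and the version kept was the one that matched an earlier analysis of these files. The other 2 were added as alternatives after seeing the data, as was normexp with offset 0. All 9 genes are named. Genes of the 4 pathway lists are named when past the threshold, or else with an unadjusted p under 0.05 and groups that do not overlap, and of the cell type lists only defining markers are named, for detection. The 3 most alike genes by correlation are named for each of the 7 genes measured on all arrays, exceptions being marked. Normexp used the raw mean signal for MPA, and the raw median signal for NET-A and for the difference, since the NET-A files hold no mean signal. Alternatives covered background correction, scaling, filters, probe rule, slide, replicate number, array weights, spread, the series table and single arrays left out.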

Additional observations from a re-analysis of the deposited data

Results flagged for a closer look

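Atp6ap2 in MPA replicate 1 lay far from the other 3 arrays of its group. Its level was 4.28, and the gap to the nearest array took 0.874 of the range of the group, above Dixon's 95% critical value for 4 samples. It was the only such array in the 32 sets of 4 examined for the 8 tested genes, where chance marks about 1 in 20. The 2 placebo arrays on the same slide both read 4.17.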

How the results depend on the processing

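No alternative brought any of the 9 genes past the threshold. Of 501 values of these genes under alternatives, 451 kept their direction and 50 reversed it, all of values with no call. The 501 cover the changes of the 8 tested genes with each progestin, and the difference of the changes for Agt and Ednrb only. A kept direction says nothing of size: Agt with MPA counts as kept at -0.07 under normexp with offset 0. The cause was not tested for any of the reversals.
With MPA against its placebo, normexp correction gave 0.033 for Agt and -0.051 for Ace, and offset 0 gave -0.030 for Ace. The mean of all probes of a gene gave -0.0075 for Ace, 0.14 for Agtr1a, 0.068 for Ednra and 0.38 for Ece1, and slide 2 alone 0.41 for Agtr1a. With single arrays left out Agtr1a ran from -0.41 to 0.088.
With NET-A against its placebo, normexp gave -0.40 for Agt, -0.22 for Agtr1a, -0.15 for Ednrb and 0.14 for Ece1, and with offset 0 they were -0.48, -0.27, -0.16 and 0.12. Array weights gave -0.089 for Atp6ap2, -0.12 for Ednrb and 0.022 for Ece1. Quantile normalization gave -0.0041 and the series table -0.0029 for Atp6ap2, and scaling to the array median 0.054 for Ece1. Slide 3 alone gave -0.74 for Agt, -0.15 for Ace and -0.33 for Agtr1a, slide 4 -0.074 for Ace, -0.44 for Agtr1a, -0.039 for Atp6ap2 and -0.29 for Ednrb, and slide 5 0.30 for Edn1 and 0.26 for Ece1. Single arrays left out gave -0.13 to 0.44 for Agt, -0.17 to 0.28 for Agtr1a, -0.081 to 0.12 for Atp6ap2, -0.26 to 0.10 for Edn1, -0.13 to 0.22 for Ednrb and -0.14 to 0.10 for Ece1.
For the MPA response minus the NET-A response, normexp gave 0.42 and offset 0 gave 0.39 for Agt. Genes at an unadjusted p under 0.05 (limma) numbered 4501 and 3165 there, against 1040 in the main fit. With NET-A they numbered 557 and 470, against 1308. Scaling to the array median moved the median difference over all genes to -0.17.
Counts over all genes were 0 apart from 1 gene in each of 5 settings, named after its value was seen. With MPA these were S100a8 with slide as a block (adjusted p = 0.0364, limma) and AK052744 in the fit of all 16 arrays (0.0462). For the difference they were AK052744 after quantile normalization (0.0342), Sall4 with the replicate block (0.0158) and Fam107a without NET-A replicate 1 (0.00672), so that leaving out single arrays gave 0 to 1 genes there. The replicate block gave 0 genes with MPA and 0 with NET-A. Same-numbered samples did not deviate together (correlations of -0.23 to 0.23 in the MPA experiment and -0.33 to 0.33 in the NET-A experiment), so the numbers were not treated as a pairing.
The filter that asks for all 8 arrays left Agt untested. Signal over background limits Agt and Agtr2. With MPA the mean of probes turned the direction of Ace, Agtr1a, Ednra and Ece1, and took Ednrb to -0.33. The choice of probe limits Ace, Ednra and Ednrb, which have other probes tested there. The means of Ace and Ednra also took in A_51_P310523 and A_51_P417991, which passed the background mark on no array of that experiment. For Agtr1a and Ece1 the only other probes, A_51_P236439 and A_51_P466423, were too dim for a test with MPA. Each passed that mark on 1 MPA array and 0 placebo arrays. Their turn is therefore no disagreement between measured probes.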
